A study of Arabidopsis thaliana with 12 samples.

Results

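The expansins and the xyloglucan endotransglucosylase/hydrolases (XTH) are the enzymes and proteins that loosen the primary cell wall during growth. The members were taken as a list of Arabidopsis gene identifiers and matched to the identifiers in all 12 count files, and all 50 of 50 were found among 37336 genes. They comprised 24 expansins (18 α-expansins named EXPA, 2 β-expansins named EXPB and 4 expansin-like genes named EXLA or EXLB) and 26 XTH genes. The RNA-Seq compared 4-day-old *Arabidopsis thaliana* seedlings in 4 groups of 3 libraries: WT (Col-0) at 29 °C, OE *APOLO-1* at 23 °C, *vim1-3* at 23 °C and WT at 23 °C. OE *APOLO-1* was a single line that carries the long noncoding RNA *APOLO* under the 35S promoter, and *vim1-3* was a T-DNA insertion line in the methylcytosine-binding protein gene *VIM1*, so each genotype rests on 1 line. By the study's methods the seedlings at 29 °C were moved there for 6 h, whereas the labels only give the temperature. Whole seedlings were pooled, so fewer cells of a type and less RNA per cell cannot be told apart.

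α- and β-expansins bind the wall and let cellulose and its matrix polymers slide past each other at acid pH, without cutting them. XTH enzymes cut xyloglucan, the polymer that tethers cellulose in the primary wall, and either rejoin the cut end to another chain or hydrolyse it. Both families are large in plants, and single members are known for particular organs, such as root hairs, or for particular stimuli, such as touch.

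The total counts ran between 8824476 and 22925019 per library, and the members took 0.324 to 0.414% of them. The *APOLO* counts were 4984, 8949 and 11720 in OE *APOLO-1*, 6 to 18 in *vim1-3*, 2 to 8 in WT 29 °C, and 1197, 2 and 1 in the libraries labelled WT 23 °C A, B and C. The library labelled WT 23 °C A therefore went against its label in this gene. The *VIM1* counts were 5, 3 and 1 in *vim1-3* and 56 to 241 in the other 9 libraries. On the first principal component, with 58.1% of the variance, the 9 libraries of the other groups lay between 0.332 and 55.1, and the WT 23 °C libraries stood apart at -29.65 (A), -148.8 (B) and -102.8 (C). Each comparison with WT 23 °C is therefore also given without the library labelled WT 23 °C A and with that library as the only WT 23 °C library, both chosen after seeing the data. The 5 photosynthesis genes used as markers of green tissue summed to between 38820 and 55840 CPM (the count scaled to the effective library size) in all 12 libraries.

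The sequences upstream of 5 members that carry the results are shown first. Each is the 250 bases before the annotated start (RefSeq, TAIR10.1), written 5′ to 3′ on the strand of the gene. *EXPA5* and *EXPA6* are shown because they were lower in *vim1-3* and both hold the auxin response element TGTCTC. *EXPA10*, not shown, was also lower in *vim1-3* and holds TGTCTC, whereas *EXPB3*, *EXLB1* and *XTH18* were lower there without it. *EXPA8* is shown because it set WT 29 °C apart from both lines. *XTH18* was lower in all 3 groups than in WT 23 °C, and *XTH22* was higher in *vim1-3*. Capitals mark TGTCTC or its complement GAGACA, the E-box CACATG or its complement CATGTG, and the brassinosteroid element CGTGTG or its complement CACACG.
*EXPA5* (AT3G29030, chr3:11013452-11013701, strand minus): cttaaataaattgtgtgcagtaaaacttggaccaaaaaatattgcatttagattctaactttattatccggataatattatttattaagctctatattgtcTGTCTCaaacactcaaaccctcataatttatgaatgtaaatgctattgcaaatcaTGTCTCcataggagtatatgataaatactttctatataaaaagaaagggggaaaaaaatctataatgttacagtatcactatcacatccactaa
*EXPA6* (AT2G28950, chr2:12433797-12434046, strand minus): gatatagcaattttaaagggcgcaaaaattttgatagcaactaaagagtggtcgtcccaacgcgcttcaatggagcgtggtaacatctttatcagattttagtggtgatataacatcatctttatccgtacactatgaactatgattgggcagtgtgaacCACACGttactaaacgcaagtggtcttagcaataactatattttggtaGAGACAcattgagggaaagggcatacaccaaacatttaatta
*EXPA8* (AT2G40610, chr2:16950706-16950955, strand minus): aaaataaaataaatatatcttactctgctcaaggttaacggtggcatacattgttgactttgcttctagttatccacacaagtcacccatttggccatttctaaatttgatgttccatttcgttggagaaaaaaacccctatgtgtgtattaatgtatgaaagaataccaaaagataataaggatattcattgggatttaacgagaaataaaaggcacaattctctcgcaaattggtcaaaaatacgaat
*XTH18* (AT4G30280, chr4:14827212-14827461, strand minus): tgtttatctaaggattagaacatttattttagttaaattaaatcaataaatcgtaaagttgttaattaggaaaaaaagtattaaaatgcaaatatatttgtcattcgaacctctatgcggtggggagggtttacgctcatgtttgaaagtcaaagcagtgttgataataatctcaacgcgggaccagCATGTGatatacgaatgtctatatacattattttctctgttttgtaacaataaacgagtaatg
*XTH22* (AT5G57560, chr5:23308681-23308930, strand minus): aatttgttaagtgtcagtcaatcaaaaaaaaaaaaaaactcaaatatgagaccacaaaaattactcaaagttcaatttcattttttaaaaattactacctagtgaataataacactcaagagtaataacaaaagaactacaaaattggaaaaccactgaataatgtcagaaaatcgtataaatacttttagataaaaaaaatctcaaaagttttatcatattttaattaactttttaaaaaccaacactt
In *EXPA5* the element TGTCTC began 149 and 94 bases before the start, and in *EXPA6* it began 42 bases before the start on the opposite strand. None of the motifs searched was in these windows of *EXPA8* and *XTH22*. Both strands were searched for 5 motifs in the same window of 27443 genes. TGTCTC was in 4 of 50 members (8%) against 10.9% of all windows, the related element TGTCGG in 3 members (6%) against 4.16%, and CGTGTG in 7 members (14%) against 5.37%. CACATG was in 11 members (22%) against 11.1% of all windows, and the G-box CACGTG was in 0 of 50 members against 6.49%. These are matches of letters, given as a description.

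The members differed widely in level. Per length, the 3 highest XTH genes over all 12 libraries were *XTH24* (AT4G30270) at 652, *XTH4* (AT2G06850) at 520 and *XTH7* (AT4G37800) at 216 RPKM (CPM divided by the merged exon length in kilobases). The 3 highest expansins were *EXPA1* (AT1G69530) at 88.7, *EXPA8* (AT2G40610) at 87.3 and *EXLA1* (AT3G45970) at 68.1 RPKM. At the other end, *EXPA12* (AT3G15370) reached at most 0.259 CPM in any library and was the only member too low to be tested. The remaining 49 members were tested among 20664 genes with edgeR's quasi-likelihood test, and called at an adjusted p under 0.01. The expansins summed to 889.6, 938.5 and 825.7 CPM in WT 29 °C, 683.9, 627.4 and 659.8 CPM in OE *APOLO-1*, 523.6, 559.2 and 550.3 CPM in *vim1-3*, and 526.1, 926.7 and 751.4 CPM in WT 23 °C. The *vim1-3* libraries and the library labelled WT 23 °C A had the 4 lowest sums, and the WT 23 °C libraries covered nearly the whole range by themselves. The library WT 23 °C B was the highest of the 12 libraries for 14 of the 49 members and the lowest for another 14. The same count was not made over all genes, so it is not shown to be particular to the members.

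**Figure D1:**
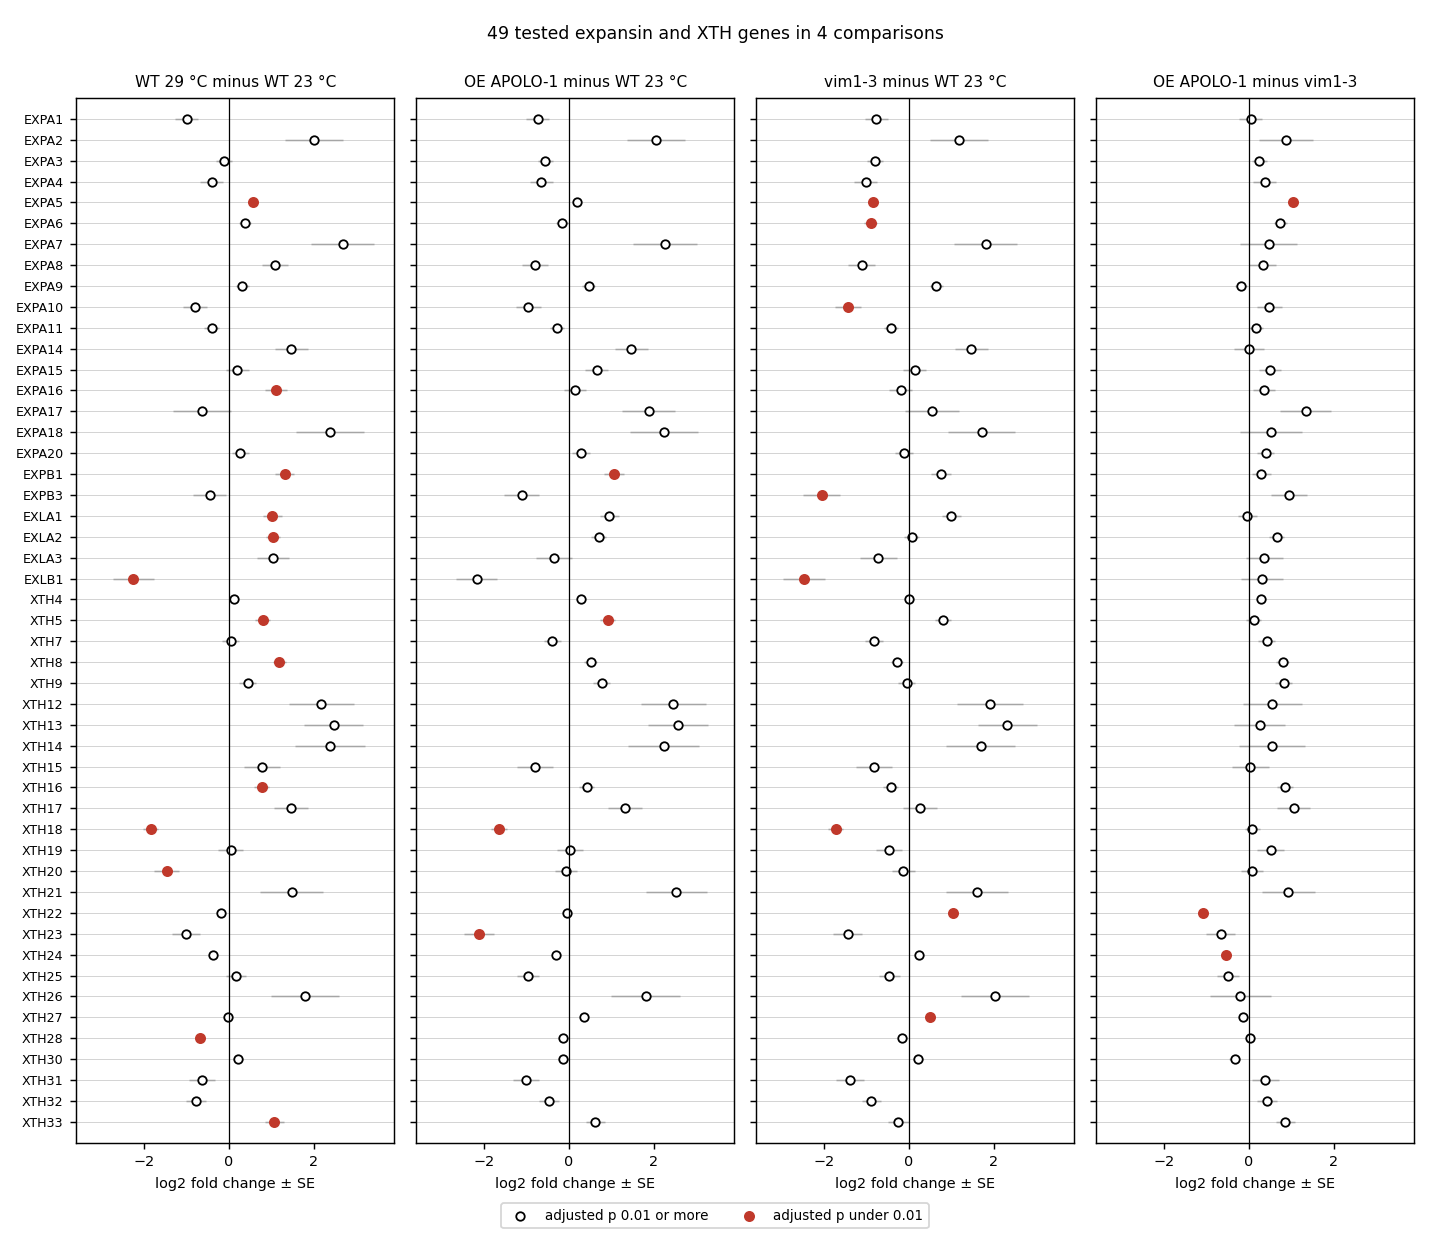
Log2 fold change (x axis, with its standard error as a bar) of the 49 tested members (y axis) in 4 comparisons, with called members as filled points and the others as open points. In *vim1-3* against WT 23 °C the called points lie mostly on the left, and in OE *APOLO-1* against *vim1-3* 40 of 49 points lie on the right of 0.

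The first comparison asked what the warm temperature did in WT. At 29 °C, 9 of 49 members rose (18.4%, against 7.88% of all 20664 genes) and 4 fell (8.16%, against 12.8%), and the median log2 difference was 0.31 over the members and -0.01 over all genes. The expansins made up 5 of the 9 that rose and 1 of the 4 that fell. The XTH genes made up 4 and 3.

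The largest rises were those of *EXPB1*, *XTH8*, *EXPA16*, *XTH33*, *EXLA2* and *EXLA1*. *EXPB1* (AT2G20750), a β-expansin, had 13.4, 14.4 and 9.8 CPM in WT 29 °C, against 4.89, 6.32 and 3.6 CPM in WT 23 °C. Every library at 29 °C lay above every one at 23 °C, and the log2 fold change was 1.31 ± 0.23 (SE, adjusted p = 0.000999). *XTH8* (AT1G11545) had 72.9, 82.7 and 60.5 CPM in WT 29 °C and 36.5, 29.6 and 27.9 CPM in WT 23 °C, a log2 fold change of 1.19 ± 0.15 (adjusted p = 0.000144). Its level in OE *APOLO-1* was between the WT groups at 53.5, 41.6 and 39.3 CPM, and in *vim1-3* it was 27.7, 22.8 and 27 CPM, so *XTH8* was also higher at 29 °C than in either line. The expansin-like genes *EXLA1* and *EXLA2* (AT4G38400) averaged 84.7 ± 7.24 and 18 ± 1.89 CPM in WT 29 °C and 41.5 ± 16.9 and 8.56 ± 2.43 CPM in WT 23 °C (SD, n = 3), with log2 fold changes of 1.02 and 1.04. In OE *APOLO-1* and *vim1-3*, *EXLA1* averaged 80.7 ± 6.09 and 83.3 ± 1.57 CPM, close to WT 29 °C. Against WT 23 °C these were log2 0.95 and 1, just short of passing (adjusted p = 0.012 and 0.0126). Its WT 23 °C libraries had 59.3 (A), 25.7 (B) and 39.6 CPM (C). *EXPA16* (AT3G55500) and *XTH33* (AT1G10550), which is anchored in the plasma membrane, were low genes that rose by 1.11 ± 0.25 and 1.07 ± 0.23 on the log2 scale, at 3.4 to 4.15 and 5.22 to 7.19 CPM in WT 29 °C against 1.39 to 2.46 and 2.28 to 3.92 CPM in WT 23 °C. The other 3 that rose were *XTH5* (AT5G13870, log2 0.79), *XTH16* (AT3G23730, 0.77) and *EXPA5* (AT3G29030, 0.57).

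The 4 members that fell at 29 °C were *EXLB1*, *XTH18*, *XTH20* and *XTH28*. *XTH28* (AT1G14720) had 32.1, 29.8 and 31.8 CPM in WT 29 °C, against 49.3, 52.7 and 48.4 CPM in WT 23 °C, a tight drop of log2 -0.68 ± 0.071 (adjusted p = 4.56e-05). OE *APOLO-1* had 43.8 to 47.8 CPM and *vim1-3* 44 to 45.3 CPM, so WT 29 °C lay below the other 3 groups without overlap. *XTH20* (AT5G48070) showed the same order at a very low level, with 0.7, 0.885 and 0.59 CPM in WT 29 °C, 1.55 to 2.17 in OE *APOLO-1*, 1.44 to 2.38 in *vim1-3* and 1.64 to 2.28 CPM in WT 23 °C (log2 -1.47 ± 0.29 for the WT pair, adjusted p = 0.00227). *XTH18* (AT4G30280) had 36.3, 35.3 and 24.6 CPM in WT 29 °C and 86.5, 141 and 120 CPM in WT 23 °C, a log2 fold change of -1.85 ± 0.18 (adjusted p = 3.81e-05). *EXLB1* (AT4G17030) had 3.09, 4.43 and 3.95 CPM in WT 29 °C, against 5.23, 29.8 and 20.5 CPM in WT 23 °C. Its value of log2 -2.26 rested on WT 23 °C B and C, since with the library labelled WT 23 °C A as the only control it was -0.45 (adjusted p = 0.158).

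*EXPA8* and *XTH15* had high levels at 29 °C that did not pass against WT 23 °C in the main edgeR fit. *EXPA8* had 241, 246 and 220 CPM in WT 29 °C, 70, 57.2 and 65 CPM in OE *APOLO-1*, 41.6, 62.2 and 50.2 CPM in *vim1-3*, and 52.8, 155 and 128 CPM in WT 23 °C. The 3 libraries at 29 °C were above all 9 at 23 °C, but the WT 23 °C libraries were spread (log2 1.08 ± 0.31, adjusted p = 0.0228). Against the library labelled WT 23 °C A alone the value was 2.16. Without that library it was 0.74, which passed (edgeR adjusted p = 0.00094). *EXPA8* also passed with DESeq2 and with upper-quartile factors. *XTH15* (AT4G14130), a gene known from shade growth, had 265, 300 and 192 CPM in WT 29 °C, 68.6 to 113 CPM in OE *APOLO-1*, 59.6 to 103 CPM in *vim1-3* and 84.7, 259 and 94.6 CPM in WT 23 °C, so only WT 23 °C B overlapped with WT 29 °C.

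These calls depended on the WT 23 °C libraries. Without the library labelled WT 23 °C A, 32 members were called (20 higher and 12 lower, at 15.2% and 18.9% of all genes), among them all 13 above. With that library as the only WT 23 °C library, 17 were called (13 higher and 4 lower, at 6.69% and 9.29% of all genes), 10 of them shared with the 13. Without WT 23 °C C 7 were called (4 higher and 3 lower, at 5.41% and 9.57% of all genes). Without WT 29 °C A, B or C 6, 7 and 8 were called. Over all genes these last 3 fits called 1086, 987 and 1029 higher and 1709, 1825 and 1787 lower. *XTH8*, *XTH18* and *XTH28* stayed called in each of these fits and under every other alternative tried. Fitted on the 6 WT libraries alone, the test called 3 members, and 23 had an unadjusted p under 0.05. Over all genes that fit called 321 higher and 688 lower, and its unadjusted p values were not counted over all genes.

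**Figure D2:**
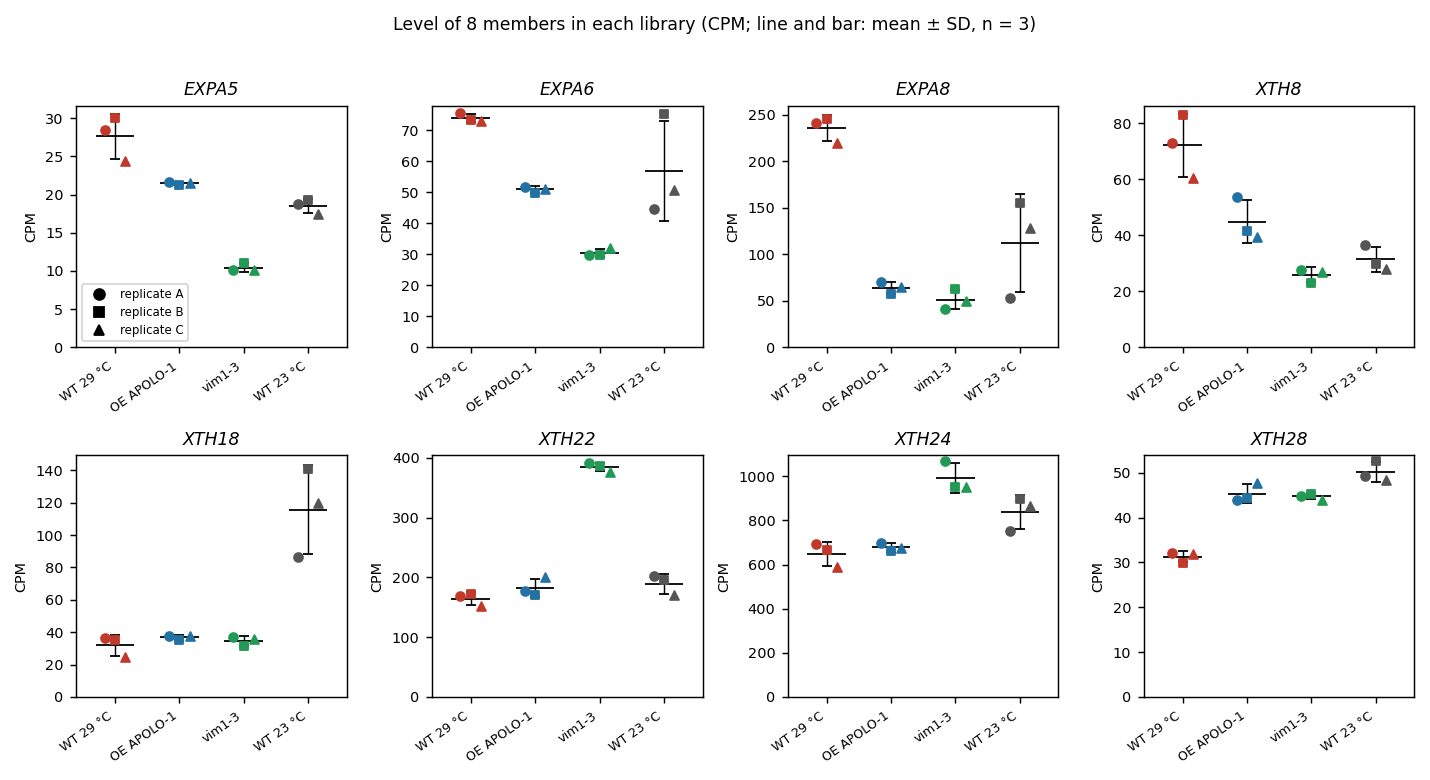
CPM (y axis, from 0) of 8 members in each library, with the 4 groups on the x axis, 1 symbol per replicate letter, and the mean ± SD as a line and bar. *EXPA8* and *XTH8* were highest in WT 29 °C, *XTH28* was lowest there, *XTH22* and *XTH24* were highest in *vim1-3*, *EXPA5* and *EXPA6* were lowest in *vim1-3*, and *XTH18* was highest in WT 23 °C.

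In OE *APOLO-1* against WT 23 °C, 2 of 49 members rose (4.08%, against 2.6% of all genes) and 2 fell (4.08%, against 7.68%). The median log2 difference was 0.20 over the members and -0.03 over all genes, and it was -0.05 over the 43 members left when the 6 known from root hairs were set aside. *EXPB1* rose by 1.06 ± 0.23 on the log2 scale (adjusted p = 0.00676), with 13.1, 10.5 and 8.06 CPM in OE *APOLO-1* against 4.89, 6.32 and 3.6 CPM in WT 23 °C. *XTH5* had 6.7, 6.06 and 5.74 CPM in OE *APOLO-1* and 3.6, 3.16 and 3 CPM in WT 23 °C, a log2 fold change of 0.91 ± 0.18 (adjusted p = 0.00455). Both genes also rose in WT 29 °C, but both comparisons use the same WT 23 °C libraries.

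The 2 members that fell in OE *APOLO-1* were *XTH18* and *XTH23*. *XTH18* had 37.9, 35 and 37.6 CPM in OE *APOLO-1*, against 86.5, 141 and 120 CPM in WT 23 °C (log2 -1.65 ± 0.18, adjusted p = 0.000357). *XTH23* (AT4G25810, also named XTR6) had 23.7, 20.6 and 20.9 CPM in OE *APOLO-1* and 45.3, 149 and 90 CPM in WT 23 °C. Its libraries did not overlap, and the log2 fold change was -2.12 ± 0.35 (adjusted p = 0.00249) and -1.06 against the library labelled WT 23 °C A alone. *XTH23* was also lower in OE *APOLO-1* than the 39.4 to 52.8 CPM of WT 29 °C and the 30.5 to 39.3 CPM of *vim1-3*, differences that did not pass (adjusted p = 0.0479 and 0.306).

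*EXPA17* (AT4G01630), an expansin known from lateral root emergence, had 12.3, 11.1 and 7.7 CPM in OE *APOLO-1*, above all other libraries, which had 1.05 to 2.16 CPM in WT 29 °C, 3.07 to 5.03 CPM in *vim1-3* and 4.89, 0.234 and 3.24 CPM in WT 23 °C. It passed in none of the 3 comparisons of OE *APOLO-1* with another group, the lowest adjusted p being 0.0228 for WT 29 °C against OE *APOLO-1*. *XTH9* (AT4G03210) had 85, 87 and 94.8 CPM in OE *APOLO-1*, against 71.1, 47 and 37 CPM in WT 23 °C (log2 0.77 ± 0.2, adjusted p = 0.0167). *XTH4* had 1010, 923 and 930 CPM in OE *APOLO-1* and 783, 713 and 842 CPM in WT 23 °C, a log2 difference of 0.29 ± 0.09 (adjusted p = 0.0354).

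Without the library labelled WT 23 °C A, 32 members were called in OE *APOLO-1* (18 higher and 14 lower, at 12.3% and 17% of all genes), among them the 4 above. With it as the only WT 23 °C library, 3 were called (1 higher and 2 lower, at 1.81% and 3.58% of all genes), of which *XTH18* and *XTH23* were shared with the 4. Leaving out WT 23 °C C gave 2 calls (0 higher and 2 lower, at 1.08% and 4.02% of all genes). Leaving out OE *APOLO-1* A, B or C gave 1, 1 and 2, with 183, 121 and 186 higher and 663, 529 and 584 lower over all genes. On the 6 libraries alone edgeR called 0 members, with 23 at an unadjusted p under 0.05, which was not counted over all genes. That fit called 0 higher and 2 lower over all genes. DESeq2 on all 12 libraries called 14 members (10 higher and 4 lower), and 1258 higher and 2148 lower of all 20664 genes.

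In *vim1-3* against WT 23 °C, 2 of 49 members rose (4.08%, against 2.19% of all genes) and 6 fell (12.2%, against 4.45%), with a median log2 difference of -0.14 over the members and -0.03 over all genes. The 6 that fell were *EXPA5*, *EXPA6*, *EXPA10*, *EXPB3*, *EXLB1* and *XTH18*, so 5 of them were expansins. The 2 that rose, *XTH22* and *XTH27*, were XTH genes.

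*XTH22* (AT5G57560), also named TCH4, is known as a gene induced by touch, heat and brassinosteroid. It had 391, 387 and 377 CPM in *vim1-3*, against 203, 195 and 170 CPM in WT 23 °C, a log2 fold change of 1.03 ± 0.095 (adjusted p = 0.000243). WT 29 °C, with 169, 173 and 152 CPM, and OE *APOLO-1*, with 177, 170 and 200 CPM, were within the range of WT 23 °C or close to it, so the *vim1-3* libraries stood alone. The value was 1.08 without the library labelled WT 23 °C A and 0.92 against that library alone. Of 3 other touch genes, 0 were called in *vim1-3* against WT 23 °C. All 3 had an unadjusted p under 0.05 in edgeR, as had 7200 of all 20664 genes tested. *TCH2* (AT5G37770) was also highest in *vim1-3*, with 40.6, 43.4 and 42 CPM there, 23.3 to 26.9 CPM in WT 29 °C, 24.2 to 30.4 CPM in OE *APOLO-1*, and 29.5, 34.5 and 31.1 CPM in WT 23 °C (log2 0.41 ± 0.1 against WT 23 °C, adjusted p = 0.0185). *TCH3* (AT2G41100) had 386 to 435 CPM in *vim1-3*, 105 to 117 CPM in OE *APOLO-1* and 38.5 to 44.9 CPM in WT 29 °C. In WT 23 °C it had 375, 1030 and 992 CPM. *TCH1* (AT2G41110) had 90, 80.3 and 88.2 CPM in *vim1-3*, below its 115, 94.2 and 103 CPM in WT 23 °C. By fitted values, 1 of the 3 touch genes was higher in *vim1-3* than in WT 23 °C and 2 were lower. *XTH27* (AT2G01850) had 167, 178 and 175 CPM in *vim1-3* and 144, 113 and 110 CPM in WT 23 °C, a log2 fold change of 0.50 ± 0.1 (adjusted p = 0.00746) that was 0.26 (adjusted p = 0.123) against the library labelled WT 23 °C A alone. *XTH24*, the highest member per length over the 12 libraries, had 1070, 952 and 952 CPM in *vim1-3* and 750, 898 and 866 CPM in WT 23 °C, which did not pass (log2 0.24 ± 0.097, adjusted p = 0.0948).

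*EXPA5*, an expansin known from brassinosteroid-dependent growth, had 10.1, 11.1 and 10.1 CPM in *vim1-3*, against 18.8, 19.3 and 17.5 CPM in WT 23 °C. The WT 23 °C libraries were close together on it, and its log2 fold change was -0.84 ± 0.096 (adjusted p = 0.000718), -0.83 without and -0.86 with only the library labelled WT 23 °C A. Across the groups its order was WT 29 °C (24.4 to 30.1 CPM), OE *APOLO-1* (21.3 to 21.6 CPM), WT 23 °C and *vim1-3*, with no overlap between neighbours, though OE *APOLO-1* and WT 23 °C did not pass (adjusted p = 0.134). *EXPA6* (AT2G28950) had 29.7, 29.8 and 31.9 CPM in *vim1-3* and 44.7, 75.3 and 50.6 CPM in WT 23 °C (log2 -0.90 ± 0.15, adjusted p = 0.0029). *EXPA10* (AT1G26770), known from leaf growth, *EXPB3* (AT4G28250) and *EXLB1* fell by 1.44, 2.06 and 2.47 on the log2 scale. Each of these last 3 was highest in WT 23 °C B, at 18.7, 29.2 and 29.8 CPM, and against the library labelled WT 23 °C A alone their values were -0.48, -1.09 and -0.65, of which that of *EXPB3* passed (adjusted p = 0.00972). Over 20 alternative settings, the calls of *EXPA10*, *EXPB3* and *EXLB1* were kept in 6, 6 and 5, and the call of *XTH27* in 6. *XTH18* had 37, 31.2 and 35.9 CPM in *vim1-3*, against 86.5, 141 and 120 CPM in WT 23 °C (log2 -1.73 ± 0.18, adjusted p = 0.000533). All 3 calls of *XTH18* use the same WT 23 °C libraries. Between OE *APOLO-1* and *vim1-3* it differed by log2 0.08 (edgeR adjusted p = 0.853).

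Without the library labelled WT 23 °C A, 26 members were called in *vim1-3* (11 higher and 15 lower, at 11% and 15.8% of all genes), among them the 8 above. With it as the only WT 23 °C library, 5 were called (1 higher and 4 lower, at 1.8% and 2.49% of all genes), and all 5 were among the 8. Leaving out WT 23 °C B gave 6 calls (4 lower and 2 higher, at 2.06% and 1.61% of all genes). Leaving out any 1 of the other libraries gave 3 to 5, with 37 to 322 higher and 56 to 627 lower over all genes. On the 6 libraries alone edgeR called 0 members, with 22 at an unadjusted p under 0.05, which was not counted over all genes. That fit called 0 higher and 1 lower over all genes. DESeq2 on all 12 libraries called 19 members (6 higher and 13 lower), and 1151 higher and 1740 lower of all 20664 genes.

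The 2 lines were then compared with each other, in the same fit of 12 libraries. In OE *APOLO-1* against *vim1-3*, 1 member was higher (2.04%, against 0.581% of all genes) and 2 were lower (4.08%, against 1.29%). Of the 49 members, 40 had a positive log2 difference (81.6%, against 48.9% of all genes), with a median of 0.36 against -0.01. Of the expansins, 21 of 23 were positive. *EXPA5*, with 21.6, 21.3 and 21.5 CPM in OE *APOLO-1* and 10.1, 11.1 and 10.1 CPM in *vim1-3*, was higher by 1.04 ± 0.095 on the log2 scale (adjusted p = 0.000186). *XTH22* was lower by log2 -1.08 ± 0.095 (adjusted p = 0.000177). *XTH24* had 699, 659 and 677 CPM in OE *APOLO-1*, against 1070, 952 and 952 CPM in *vim1-3* (log2 -0.55 ± 0.097, adjusted p = 0.00693).

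Members just outside the threshold in this comparison were *XTH8* (log2 0.79, adjusted p = 0.011), *EXPA6* (0.74, adjusted p = 0.014) and *XTH16* (0.85, adjusted p = 0.0181). On these 6 libraries alone, where the WT 23 °C spread does not enter, 16 members were called, 12 higher and 4 lower. Calls rose over all genes too, to 926 higher and 1220 lower, against 120 and 267 in the main fit. Leaving out the library labelled WT 23 °C A gave 10 calls (8 higher and 2 lower, at 2.9% and 4.88% of all genes). Leaving out WT 23 °C B gave 6 (4 higher and 2 lower, at 1.21% and 2.16%), since all groups share 1 estimate of the spread. *EXPA5* and *XTH22* stayed called under every alternative tried, and *XTH24* had an adjusted p of 0.0427 at the highest.

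WT 29 °C was also set beside each line, where temperature and genotype cannot be told apart. Against OE *APOLO-1*, 3 members were higher in WT 29 °C (6.12%, against 4.7% of all genes) and 2 were lower (4.08%, against 3.47%). *EXPA8* was higher by 1.88 ± 0.32 on the log2 scale (adjusted p = 0.00323), *XTH25* (AT5G57550) by 1.13 ± 0.25 and *XTH8* by 0.69 ± 0.15, and *XTH20* and *XTH28* were the 2 that were lower. Against *vim1-3*, 9 were higher (18.4%, against 6.75% of all genes) and 5 were lower (10.2%, against 6.88%). The 9 comprised 6 expansins (*EXPA5*, *EXPA6*, *EXPA8*, *EXPA16*, *EXLA2* and *EXLA3*) and 3 XTH genes (*XTH8*, *XTH16* and *XTH33*), and the 5 were the XTH genes *XTH20*, *XTH22*, *XTH24*, *XTH27* and *XTH28*. *EXPA8* was the furthest apart, with log2 2.20 ± 0.32 (adjusted p = 0.000921). *EXLA3* (AT3G45960) was a low gene at 1.28, 1.38 and 1.45 CPM in WT 29 °C, against 0.341, 0.477 and 0.422 CPM in *vim1-3*. On the 6 libraries of each comparison alone, 17 members were called against OE *APOLO-1* and 25 against *vim1-3*. Over all genes these fits called 1680 higher and 1746 lower, and 2888 higher and 3158 lower. Against OE *APOLO-1*, leaving out the library labelled WT 23 °C A gave 13 calls (9 higher and 4 lower, at 8.77% and 8.65% of all genes). Leaving out WT 23 °C B gave 10 (7 higher and 3 lower, at 6.18% and 5.13%). Leaving out any library of WT 29 °C, OE *APOLO-1* or *vim1-3* gave 1 to 3, with 446 to 786 higher and 304 to 547 lower over all genes.

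The 6 members known from root hairs and the root epidermis had some of the widest gaps and passed in no comparison. *EXPA7* (AT1G12560), a root hair expansin, had 49.8, 57.9 and 37.3 CPM in WT 29 °C, 37.9, 34.8 and 35.7 CPM in OE *APOLO-1*, 31.5, 20.3 and 26.6 CPM in *vim1-3*, and 14.8, 0.117 and 7.09 CPM in WT 23 °C. The gap came with the WT 23 °C libraries, which were all below the others, with B near 0. *EXPA18* (AT1G62980), its close relative in root hairs, had 16.6 to 43.8 CPM in the other 3 groups, against 14.3, 0 and 5.16 CPM in WT 23 °C. *XTH14* (AT4G25820), which acts at root hair initiation sites, had 43.8 to 127 CPM in the other 3 groups, against 39.3, 0.644 and 17.5 CPM in WT 23 °C.

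*XTH12* (AT5G57530), *XTH13* (AT5G57540) and *XTH26* (AT4G28850) had the same order of libraries within WT 23 °C, with 7.81, 3.93 and 5.7 CPM in A, 0.0585, 0.0585 and 0 CPM in B, and 1.8, 1.2 and 1.8 CPM in C. All 6 genes lay above every WT 23 °C library in all 3 libraries of WT 29 °C (against 21.9% of all genes) and of OE *APOLO-1* (against 15.1%), and 5 of 6 did in *vim1-3* (against 17.6%). Their median log2 differences were 2.38 in WT 29 °C and 2.25 in OE *APOLO-1*, and 1.86 was the value in *vim1-3*. The lowest adjusted p among the 6 was 0.0211, for *EXPA7* in WT 29 °C. Without WT 23 °C B, *EXPA7* had log2 2.07 in WT 29 °C (adjusted p = 0.000749) and 1.65 in OE *APOLO-1* (adjusted p = 0.00527). Without the library labelled WT 23 °C A the values of *EXPA7* were 4.19 (adjusted p = 0.00338) and 3.77 (0.00675), and against that library alone 1.70 (0.00201) and 1.28 (0.0196). *EXPA18* without that library also passed, at 4.26 in WT 29 °C (adjusted p = 0.00462) and 4.11 in OE *APOLO-1* (0.00646), and against it alone had 1.29 (0.0423) and 1.14 (0.118).

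Other genes of the root moved with these members. The 6 members summed to 166.6 to 270.7 CPM in WT 29 °C, 176.3 to 234.8 CPM in OE *APOLO-1*, 100.6 to 184.4 CPM in *vim1-3*, and 85.84, 0.878 and 34.55 CPM in WT 23 °C A, B and C. A list of 8 other root hair genes summed to 227.8 to 334.9 CPM in WT 29 °C, 244.6 to 317.1 CPM in OE *APOLO-1*, 188.2 to 266.5 CPM in *vim1-3*, and 144.9, 64.99 and 97.41 CPM in WT 23 °C. Of the WT 23 °C sums, *SCN1* (AT3G07880) alone held 70.8, 62.3 and 56.2 CPM, so it made up most of the sum in B. The root hair wall protein gene *PRP3* (AT3G62680) had 63.6 to 152 CPM in the other 3 groups, against 38.3, 0.176 and 18.6 CPM in WT 23 °C. A list of 5 root endodermis genes, none of them a hair gene, summed to 152.3 to 165.6 CPM in WT 29 °C, 168.5 to 200 CPM in OE *APOLO-1*, 138.4 to 161.7 CPM in *vim1-3*, and 101.8, 24.3 and 69.78 CPM in WT 23 °C. The libraries thus ranked alike within WT 23 °C on all 3 sums, and the part of root material in the members' differences was not tested.

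**Figure D3:**
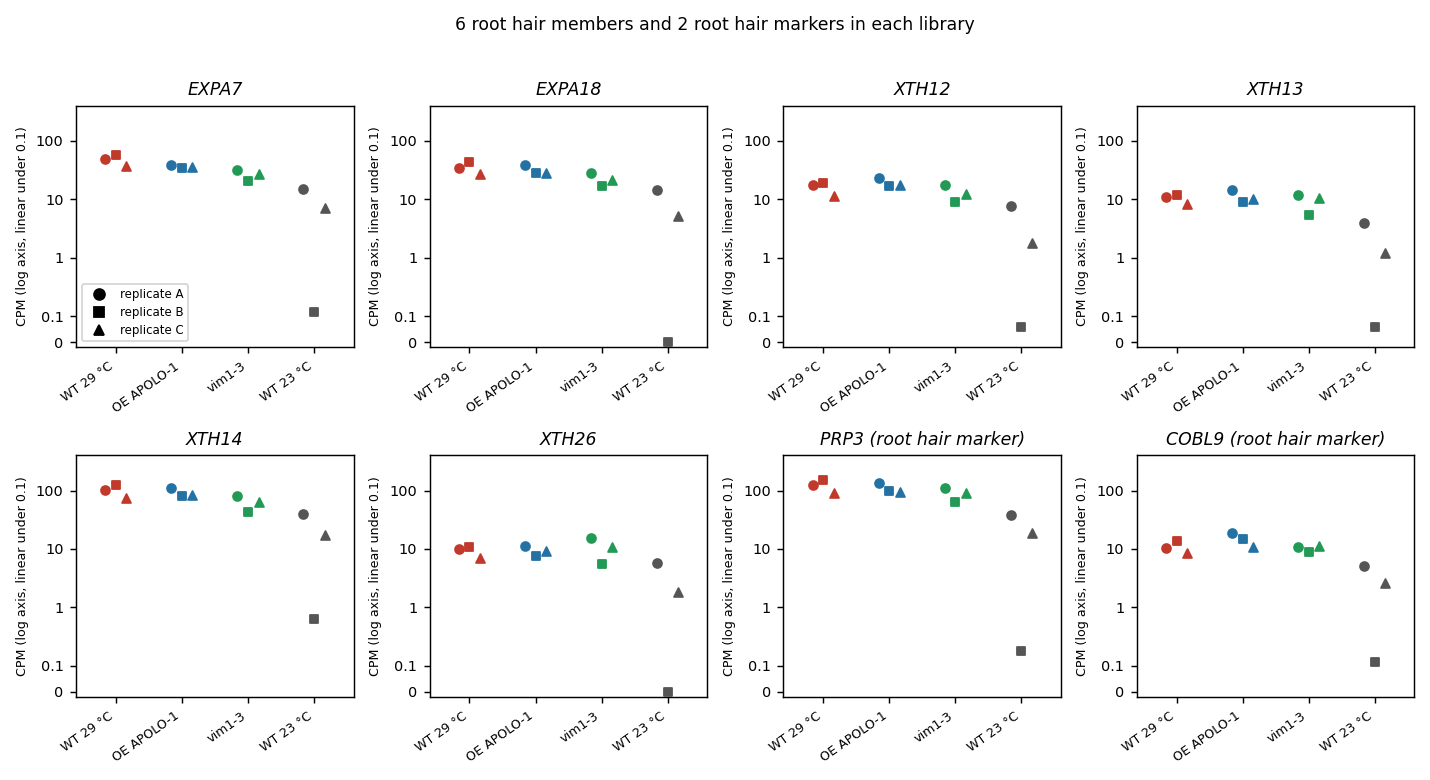
CPM (y axis, log scale with a linear stretch under 0.1) of the 6 root hair members and of the root hair markers *PRP3* and *COBL9* in each library, with the 4 groups on the x axis and 1 symbol per replicate letter. In every panel WT 23 °C B is the lowest point, WT 23 °C C the next, and the WT 29 °C and OE *APOLO-1* libraries lie above all WT 23 °C libraries.

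A second list moved with WT 23 °C in the other direction. A list of 10 jasmonate and wound genes summed to 134 to 142.7 CPM in WT 29 °C, 85.25 to 102.1 CPM in OE *APOLO-1*, 76.2 to 85.81 CPM in *vim1-3* and 187.1 to 637.2 CPM in WT 23 °C, with the lowest of the WT 23 °C values in A. The members highest in WT 23 °C B included *EXLB1*, *EXPA10*, *EXPB3*, *XTH18*, *XTH23*, *EXPA1*, *EXPA4* (AT2G39700), *EXPA11* (AT1G20190), *XTH31* (AT3G44990) and *XTH32* (AT2G36870). *EXPA1*, known from leaf and guard cell growth, had 98.1, 99.7 and 108 CPM in WT 29 °C, 118 to 130 CPM in OE *APOLO-1*, 94 to 142 CPM in *vim1-3*, and 111, 280 and 224 CPM in WT 23 °C. It passed in none of the comparisons (lowest adjusted p = 0.0159, in WT 29 °C). Without the library labelled WT 23 °C A, *EXPA1* passed with log2 -1.30 in WT 29 °C (adjusted p = 3.96e-06), -1.04 for OE *APOLO-1* (4.19e-05) and -1.07 for *vim1-3* (3.76e-05), and against that library alone the values were -0.12, 0.14 and 0.11. The part of wounding or handling in these values was not tested.

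Of the 50 members, 11 lay in 4 groups of neighbours less than 10000 bases apart, and the values of neighbours were set side by side. On chromosome 4, *XTH24*, *XTH18* and *XTH19* (AT4G30290) lie in this order between positions 14819192 and 14830224 of TAIR10.1. *XTH18* fell in all 3 groups against the same WT 23 °C libraries. *XTH19*, which lies 1501 bases from it and like it is known from the root, had log2 differences of 0.04, 0.03 and -0.48 (adjusted p of 0.294 or more). *XTH19* had 10 to 13.3 CPM in WT 29 °C, 9.4 to 13.5 CPM in OE *APOLO-1*, 5.8 to 10.3 CPM in *vim1-3* and 9.06, 18 and 7.81 CPM in WT 23 °C. On chromosome 5, *XTH12*, *XTH13*, *XTH25* and *XTH22* lie between 23300321 and 23308680. *XTH22* rose in *vim1-3*, but *XTH25*, which lies 566 bases away, had 3.45, 3.73 and 3.34 CPM in *vim1-3* and 3.79, 6.15 and 4.44 CPM in WT 23 °C (log2 -0.46 ± 0.25, adjusted p = 0.214). *XTH12* and *XTH13*, 1098 bases apart, had like log2 values of 2.18 and 2.47 in WT 29 °C against WT 23 °C, neither of which passed.

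The other 2 groups of neighbours were *XTH23* with *XTH14*, 364 bases apart on chromosome 4, and *EXLA3* with *EXLA1*, 2013 bases apart on chromosome 3. *XTH23* was lower and *XTH14* higher than WT 23 °C in all 3 groups by their fitted values, of which only *XTH23* in OE *APOLO-1* passed. *EXLA3* and *EXLA1* had log2 values of 1.03 and 1.02 in WT 29 °C against WT 23 °C, of which only that of *EXLA1* passed. No stretch of 75 bases within an exon of a member was found unchanged in an exon of another gene. In *XTH21*, 45 of 974 such stretches were also found elsewhere in the genome, outside an exon. Shorter reads left by trimming, and reads aligned with mismatches, were not checked. *EXPA2*, *EXPA7*, *EXPA18*, *EXPA20*, *EXLA1* and *XTH15* overlap a gene on the opposite strand, and whether the counting used strand is not given in the sources used here.

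**Figure D4:**
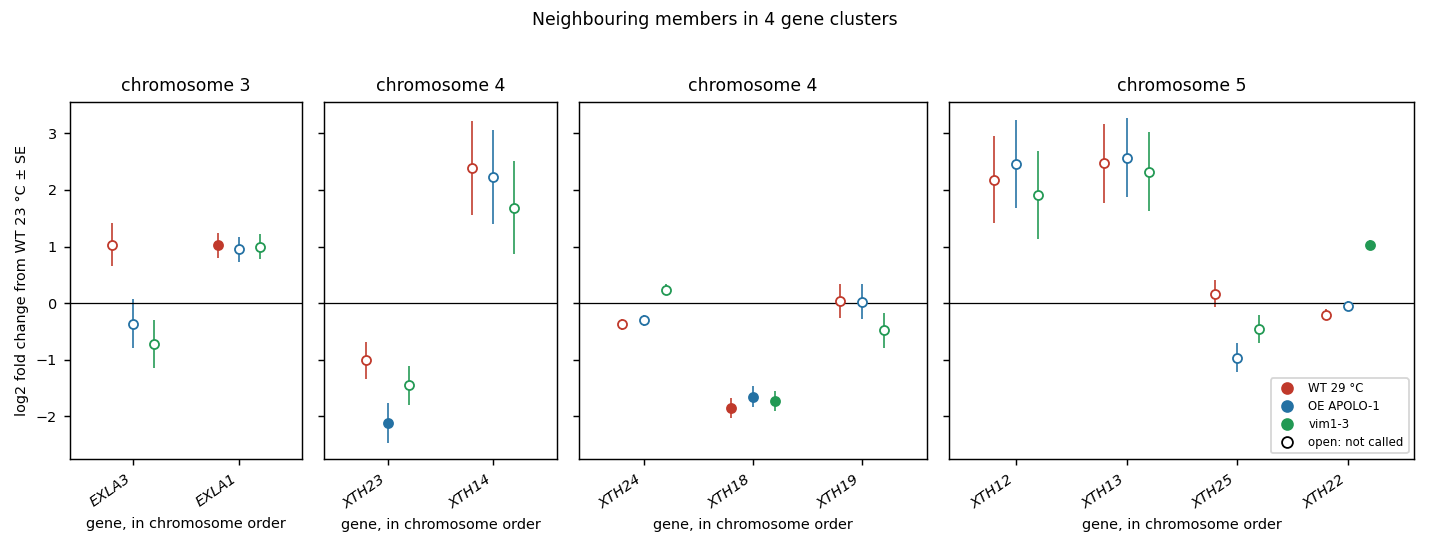
Log2 fold change from WT 23 °C with its standard error (y axis) for the 11 members in 4 groups of neighbours, in chromosome order on the x axis (not to scale), for the 2 lines and for WT 29 °C. Filled points passed the test. *XTH18* lies below 0 in all 3 groups with its neighbours *XTH24* and *XTH19* between -0.48 and 0.24, and *XTH22* is above 0 in *vim1-3* only.

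The remaining members passed in none of the 6 comparisons. Among them, *XTH17* (AT1G65310) had 26.9, 28.2 and 18.9 CPM in WT 29 °C, 18.9 to 25.3 CPM in OE *APOLO-1*, 7.79 to 12.7 CPM in *vim1-3*, and 15.9, 4.98 and 4.92 CPM in WT 23 °C (adjusted p = 0.0186 for the WT pair). *EXPA14* (AT5G56320) had 4.13 to 5.64 CPM in the 9 libraries of the other groups, against 3.26, 0.703 and 1.08 CPM in WT 23 °C, and *EXPA2* (AT5G05290) and *XTH21* (AT2G18800) were near 0 in WT 23 °C B as well, at 0.176 and 0 CPM. *XTH7* and *EXPA3* (AT2G37640), both abundant, had their lowest libraries in *vim1-3*, at 176 and 65.1 CPM, and against WT 23 °C had log2 differences of -0.82 (adjusted p = 0.0188) and -0.80 (adjusted p = 0.0119) there. *XTH30* (AT1G32170), *EXPA15* (AT2G03090) and *EXPA20* (AT4G38210) differed by 0.65 or less on the log2 scale in every comparison. *EXPA9* (AT5G02260) had 25.9 to 27 CPM in *vim1-3* and 14.2 to 19 CPM in WT 23 °C, which did not pass (adjusted p = 0.0115).

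Other genes of the wall were read from lists. Of 14 xyloglucan synthesis genes tested, 3 fell in *vim1-3* against WT 23 °C and 0 rose (4.45% and 2.19% of all genes). An unadjusted p under 0.05 in edgeR was found for 6 of the 14 and for 7200 of all 20664 genes. The galactosyltransferase gene *XLT2* (AT5G62220) had 7.07, 6.75 and 6.42 CPM in *vim1-3*, against 13, 19.7 and 20.4 CPM in WT 23 °C (log2 -1.38 ± 0.15, adjusted p = 0.000626), and the glucan synthase genes *CSLC4* (AT3G28180) and *CSLC5* (AT4G31590) fell by 0.73 and 0.46. *XLT2* was also higher in OE *APOLO-1* than in *vim1-3*, by 0.86 ± 0.15 (adjusted p = 0.00696). In WT 29 °C 1 of the 14 rose, and so it did in OE *APOLO-1* (*FUT1*, log2 0.53 and 0.46).

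Of 9 plasma membrane proton pump genes tested, whose products acidify the wall, 3 rose in WT 29 °C and 3 in OE *APOLO-1*, against 0 in *vim1-3*, where 4 had an unadjusted p under 0.05 in edgeR. For all lists here the share of all genes called higher was 7.88% in WT 29 °C, 2.6% for OE *APOLO-1* and 2.19% for *vim1-3*. In *vim1-3* against WT 23 °C, 7200 of all 20664 genes had an unadjusted p under 0.05 in edgeR. *AHA2* (AT4G30190) had 592, 645 and 573 CPM in WT 29 °C, 498 to 611 CPM in OE *APOLO-1*, 519 to 529 CPM in *vim1-3* and 400, 208 and 318 CPM in WT 23 °C, so WT 23 °C was below all others (log2 0.97 in WT 29 °C, adjusted p = 0.00166). *AHA7* (AT3G60330) had 23.7, 25 and 19.2 CPM in WT 29 °C, 29.3, 31 and 26.4 CPM in OE *APOLO-1*, 14.9 to 18.9 CPM in *vim1-3*, and 10.3, 2.46 and 7.21 CPM in WT 23 °C. Within WT 23 °C both genes ranked A, C, B, as the summed root markers did, and the part of root content in their calls was not tested. *AHA11* (AT5G62670) rose in WT 29 °C only among the 3 groups set against WT 23 °C, by 1.08 ± 0.099 (adjusted p = 2.3e-05), and was also higher in WT 29 °C than in OE *APOLO-1* (log2 0.87) and *vim1-3* (0.89). Of 10 genes of primary wall cellulose synthesis, 4 rose in WT 29 °C and 3 in OE *APOLO-1*, with 0 in *vim1-3* (4 at an unadjusted p under 0.05 in edgeR), all by 0.53 or less on the log2 scale. Of 3 xyloglucan trimming genes, 2 rose in WT 29 °C and 1 in OE *APOLO-1*, which was the fucosidase gene *AXY8* (AT4G34260, log2 0.80 and 0.75). Of 18 further family genes outside the member list, 5 were tested, and *XTH6* (AT5G65730, log2 0.97) and *EXPA13* (AT3G03220, 0.56) rose in WT 29 °C.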

How the data were processed

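RNA-Seq libraries of 12 seedling samples were deposited as 1 file of raw counts per gene each. By the authors' methods and processing notes, reads were trimmed with Trimmomatic 0.36, rRNA reads were removed with SortMeRNA, and the rest was aligned with STAR 2.5.2b to TAIR10 and counted with featureCounts of Subread 1.6.5. The deposited counts were tested in R 4.3.3 with edgeR 4.0.16: 1 quasi-likelihood fit of 12 libraries, TMM factors, genes kept by filterByExpr, Benjamini-Hochberg adjustment over all 20664 genes tested in each comparison, threshold 0.01. CPM used the effective library size and RPKM the merged exon length. A CPM of 0 stands for fewer than 3 counts with 95% confidence, which is 0.127 to 0.36 CPM by depth and covers counting error only.

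The members and lists were chosen with earlier results of these data known. Named first were called members (up to 6 per direction, by size, at a mean of at least 1 CPM), 15 members with known roles and the 3 most abundant of each family. Members outside this rule were named to account for the whole list, after their values were seen. The methods state 3 independent biological replicates, and replicate letters did not pair the libraries. Alternatives were RLE and upper-quartile factors, no filter, DESeq2 1.42.0, the 6 libraries compared, a replicate block, a threshold of 0.05 and each library left out. Coordinates and sequences are from RefSeq TAIR10.1, whose nuclear chromosomes have the lengths of TAIR10.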

Additional observations from a re-analysis of the deposited data

How the results depend on the processing

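The counts of called members depended on the spread of the WT 23 °C libraries more than on scaling. Leaving out 1 library gave 6 to 32 calls in WT 29 °C against WT 23 °C, 1 to 32 in OE *APOLO-1* and 3 to 26 in *vim1-3* against WT 23 °C, 2 to 10 in OE *APOLO-1* against *vim1-3*, 1 to 13 in WT 29 °C against OE *APOLO-1* and 10 to 21 in WT 29 °C against *vim1-3*. In the same order of comparisons, edgeR on the 6 libraries compared gave 3, 0, 0, 16, 17 and 25 calls, with 23, 23 and 22 members at an unadjusted p under 0.05 in the first 3, DESeq2 gave 20, 14, 19, 7, 10 and 19, and the threshold of 0.05 gave 24, 22, 21, 9, 13 and 19. With the library labelled WT 23 °C A as the only WT 23 °C library, a setting chosen after seeing the data, the counts were 17, 3, 5, 16, 18 and 27. In the same order, edgeR on the 6 libraries compared called 321, 0, 0, 926, 1680 and 2888 of all genes higher. It called 688, 2, 1, 1220, 1746 and 3158 lower, and unadjusted p values were not counted over all genes there. DESeq2 called 2196, 1258, 1151, 436, 1295 and 1767 of all genes higher and 3066, 2148, 1740, 634, 1296 and 2037 lower. Without a filter on low counts OE *APOLO-1* against *vim1-3* gave 5 calls, and with RLE factors WT 29 °C against OE *APOLO-1* gave 3. Upper-quartile factors moved the median of all genes in WT 29 °C against WT 23 °C to 0.09 and the calls over all genes to 2270 higher and 2166 lower, against 1628 higher and 2636 lower, and the members to 10 higher and 4 lower. The replicate letters are not stated to mark a shared batch, and libraries of the same letter did not deviate together; with a replicate block the counts were 13, 5, 4, 3, 4 and 12. No called direction reversed under any alternative: of 1980 recomputed values of named members, 1716 kept their side of the threshold, 198 no longer passed and 66 newly passed. The cause of the differences between WT 23 °C libraries was not tested. Depth limits members under about 1 CPM, such as *EXPA12* and *EXLA3*, and with 3 libraries in each group and 1 line per genotype the tests cover only the spread between these libraries.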
